A study of Mus musculus with 104 samples.

Results

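The comparison described here set bone marrow-derived macrophages (BMDMs) given the Notch ligand DLL4 together with the inhibitor DAPT against BMDMs left untreated. Its members were the libraries whose labels start with BMDMctrDll4Dapt or BMDMctrNotx, 2 of each, so 4 of the 104 libraries of a mouse RNA-seq series on Kupffer cells, macrophages that reside in the liver. All 4 came from Smad4 flox/flox cells without Cre, so both groups carried the floxed Smad4 alleles. The cells had been cultured for 4 days. The treated group received DLL4 for 24 h and DAPT for 24 h, and the other group is labelled as having no treatment. BMDMs are macrophages grown from bone marrow in culture and serve as a model without liver cells around them. The labels name no vehicle or control coating for the untreated cells. Nor do they tell if the 2 libraries of a group are separate mice or separate dishes. The p-values rest on the spread between libraries of a group, pooled over 20 BMDM libraries, and that spread may be technical.

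Notch receptors are cut when a ligand such as DLL4 on a neighbouring cell binds them. A sheddase first removes the outer part, and then gamma-secretase, a membrane protease complex, releases the intracellular domain, which enters the nucleus and switches on targets such as Hes1 together with the DNA-binding protein RBPJ. DAPT blocks gamma-secretase, which also cuts many other membrane proteins, and DLL4 on liver sinusoidal endothelial cells is known as a signal that helps incoming monocytes take on the Kupffer cell programme. A gene that still differed from untreated cells with DLL4 and DAPT may carry a DLL4 effect that DAPT did not remove or an effect of DAPT itself. No library given DAPT without DLL4 was analysed here, so these sources cannot be told apart.

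Hes1 was under 1 TPM in the untreated libraries and in those with DLL4 and DAPT. This transcriptional repressor, a canonical Notch target, was at 0.133 and 0.345 TPM, a transcript abundance scaled for gene length and sequencing depth, in the untreated libraries, at 22.1 and 21.1 TPM in the libraries given DLL4 alone for 24 h (same genotype, 2 libraries), and at 0.303 and 0.646 TPM with DLL4 and DAPT. The DLL4 libraries stood far above both other groups, which overlapped each other. On the log2(TPM + 1) scale, used for all differences below, Hes1 with DLL4 and DAPT was 0.25 ± 0.18 (standard error) from untreated, with a limma adjusted p of 0.475, and -3.95 from DLL4 alone (adjusted p 1.74e-09). It was tested only because the libraries with DLL4 lay above the minimum of 4 TPM, so the first p says little about so low a level. Of 19 listed Notch targets 7 reached at least 4 TPM in 2 libraries of the table and were tested. By limma with Benjamini-Hochberg adjustment 0 of the 7 passed at an adjusted p under 0.05 against untreated. By unadjusted p under 0.05 there were 2, and limma-voom on recovered reads gave 0. Over all genes 5.21% passed, so 0 of 7 is near that share. With DLL4 alone 3 of the 7 rose and 3 fell by adjusted p (20.6% and 24.4% of all genes), with a median of -0.26. The list was thus not raised as a whole by DLL4. Ccnd1, cyclin D1, was at 208 and 266 TPM untreated, 65.0 and 54.7 TPM with DLL4, and 172 and 163 TPM with DLL4 and DAPT. Its untreated libraries were the highest and its DLL4 libraries the lowest, and the remaining difference of -0.49 ± 0.40 did not pass the test (adjusted p 0.526).

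A small set of genes differed by at least 2-fold. Of 10267 genes tested, 32 were called (limma adjusted p under 0.05 and at least 2-fold), 8 higher and 24 lower with DLL4 and DAPT. That is 0.312% of genes in either direction, 0.0779% higher and 0.234% lower. By adjusted p alone 348 genes rose and 187 fell, 5.21% of those tested (3.39% rose and 1.82% fell), with a median absolute difference of 0.41, so most changes that passed the test were under 2-fold. DLL4 alone against the same untreated libraries gave 417 calls (297 higher, 2.89%, and 120 lower, 1.17%, or 4.06% in all), and DLL4 with DAPT against DLL4 gave 215 (35 higher, 0.341%, and 180 lower, 1.75%, or 2.09% in all). These 3 comparisons share libraries, so their values stand side by side below and no overlap between them is given. The 4 libraries held 13683549 to 18250400 reads, as recovered from the TPM. The spread used in the test came from all 20 libraries of the table, of which the pair of control libraries given TGF-beta stood apart. Its replicates differed by a chi-square of 27.9 per degree of freedom, against 3.13 and 3.36 in the groups compared, and 37 genes were called without that pair. Fewer genes were called without one or the other BMDMctrNotx library. Without BMDMctrNotx replicate 1 rises and falls were called in nearly equal number. The lower calls Hmga2, Tmem26 and A230028O05Rik were not tested in those fits, as only the untreated pair reached 4 TPM. The cause of these shifts was not tested. With so few libraries 56.4% of all tested genes had groups that did not overlap.

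**Figure D1:**
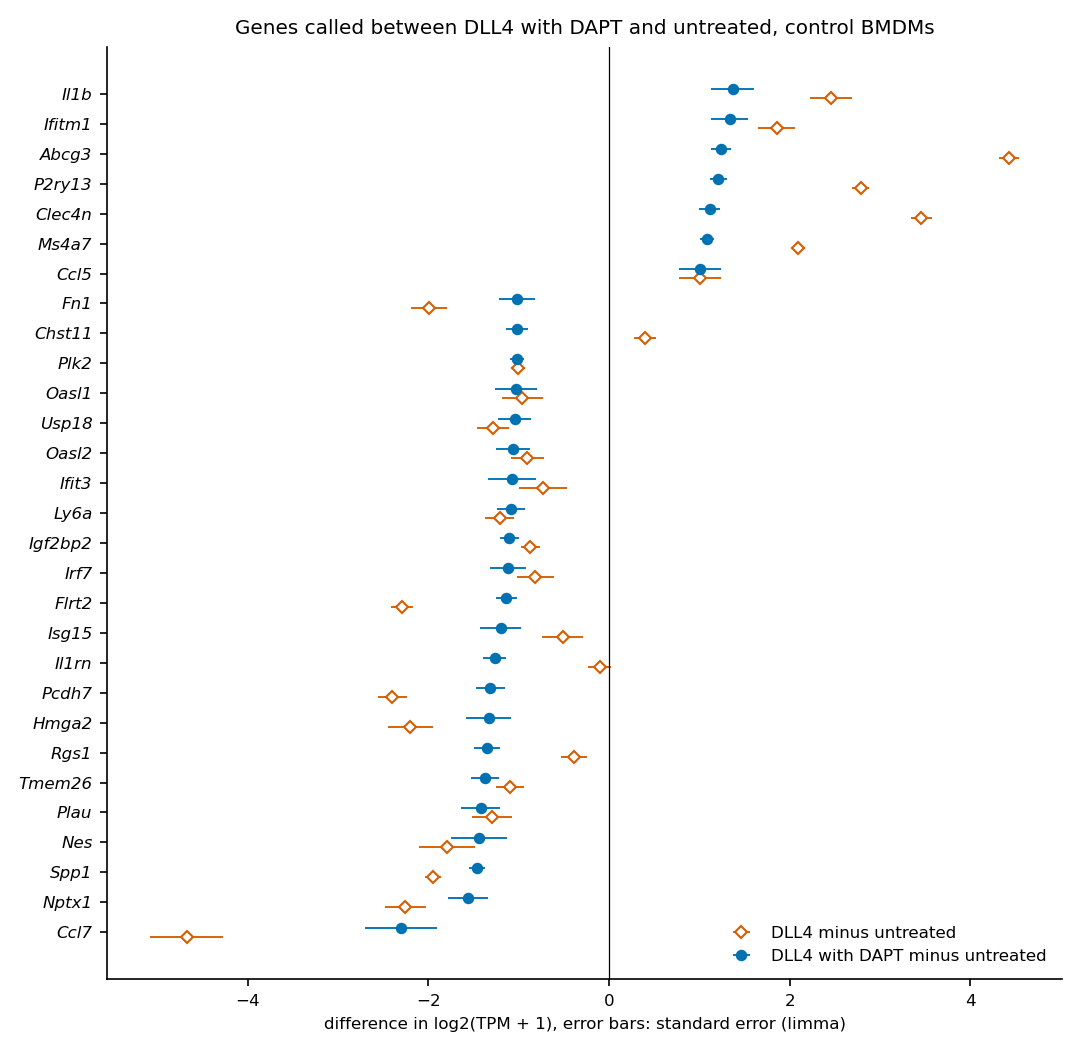
Difference in log2(TPM + 1) for the 29 called genes that are not small RNAs or clone names, in control BMDMs. Filled circles show DLL4 with DAPT minus untreated, open diamonds DLL4 minus untreated, and bars the limma standard error; both comparisons use the same untreated libraries. Clec4n, Abcg3 and P2ry13 lie farther right with DLL4 alone, Plau, Plk2 and Ly6a lie close together, and the diamonds of Il1rn and Chst11 lie at -0.10 and 0.40.

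Among the 8 genes called higher were surface receptors and transporters for which DLL4 alone gave a larger value still. Clec4n, which encodes the C-type lectin Dectin-2 (chr6:123229843-123247024, mm10), was at 27.0 and 22.4 TPM untreated, 52.6 and 56.3 TPM with DLL4 and DAPT, and 259 and 301 TPM with DLL4. The groups did not overlap, and DLL4 with DAPT lay between the others. Its difference was 1.12 ± 0.12 from untreated (limma adjusted p 9.03e-05), against 3.46 with DLL4 alone. Abcg3, a member of the ABC transporter family (chr5:104935057-104982717), was at 2.91 and 3.50 TPM untreated, 9.38 and 8.42 TPM with DLL4 and DAPT, and 87.6 and 90.6 TPM with DLL4. Here too the 3 groups were separate, with differences from untreated of 1.24 ± 0.11 (adjusted p 2.41e-05) and 4.43. P2ry13, a G protein-coupled receptor for ADP, was at 4.58 and 4.45 TPM untreated and 11.8 and 11.7 TPM with DLL4 and DAPT, a difference of 1.21 ± 0.09 (adjusted p 8.64e-06) beside 2.79 with DLL4. Ms4a7, a membrane protein of macrophages, was at 94.9 and 83.6 TPM against 184 and 196 TPM, a difference of 1.08 ± 0.08 (adjusted p 7.34e-06) beside 2.09 with DLL4. For these 4 genes every library with DLL4 and DAPT was above both untreated libraries. Without BMDMctrNotx replicate 2 the differences of Clec4n and Ms4a7 were both 0.99, just under the 2-fold minimum.

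Most of the other higher calls were of low abundance. Il1b, Ifitm1, Ccl5 and Mir1943, and Abcg3 above, were under the minimum of 4 TPM in both untreated libraries. They were tested only because other libraries of the table lay above it, which favours calls as rises. Il1b, the cytokine interleukin 1 beta, was at 1.37 and 2.05 TPM untreated, 4.59 and 7.60 TPM with DLL4 and DAPT, and 12.4 and 15.3 TPM with DLL4. The 3 groups were separate, and the difference was 1.37 ± 0.23 (limma adjusted p 0.00435). That call was lost without BMDMctrDll4Dapt replicate 2 (adjusted p 0.0718) or BMDMctrNotx replicate 1 (0.0508). Ifitm1, an interferon-induced membrane protein, was at 1.73 and 1.79 TPM against 6.43 and 5.53 TPM, a difference of 1.34 ± 0.20 (adjusted p 0.00187). With DLL4 alone it was at 8.27 and 9.76 TPM, and DLL4 with DAPT differed from DLL4 by -0.52 (adjusted p 0.0653). Ccl5, a chemokine for lymphocytes and monocytes, was at 3.66 and 2.84 TPM against 7.09 and 7.99 TPM. Its difference of 1.01 ± 0.23 (adjusted p 0.0226) stood beside 1.01 with DLL4 alone, and the call was lost when any 1 of the 4 libraries was left out (adjusted p 0.0582 to 0.198). The eighth call was a small RNA name, Mir1943, listed at 0 in both untreated libraries.

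Secreted matrix and protease genes were among the falls at high abundance. Of 17 tested members of a matrix and protease list 3 were called lower and 0 higher, where 0.234% of all genes were called lower. By adjusted p 5 fell and 2 rose (1.82% and 3.39% of all genes), with a median of -0.08 beside 0.03 over all genes tested. Spp1, osteopontin, a secreted matrix protein and cytokine (chr5:104435111-104441053), was at 2261 and 2366 TPM untreated, 844 and 839 TPM with DLL4 and DAPT, and 581 and 615 TPM with DLL4. All 4 treated libraries were far below both untreated ones. Spp1 fell by 1.46 ± 0.09 with DLL4 and DAPT (limma adjusted p 1.72e-06), a 2.75-fold difference in mean TPM, and by 1.95 with DLL4. DLL4 with DAPT stood 0.49 above DLL4 (adjusted p 0.00107). Plau, the urokinase-type plasminogen activator, a secreted protease (chr14:20836662-20843388), was at 615 and 819 TPM untreated, 269 and 260 TPM with DLL4 and DAPT, and 289 and 289 TPM with DLL4. The untreated libraries were higher and farther apart than the others. Plau fell by 1.42 ± 0.22 (adjusted p 0.00226) beside 1.29 with DLL4, and DLL4 with DAPT differed from DLL4 by -0.13 ± 0.22 (adjusted p 0.694).

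Fn1, fibronectin, a matrix glycoprotein, was at 26.0 and 31.9 TPM untreated, 14.5 and 13.0 TPM with DLL4 and DAPT, and 6.41 and 6.54 TPM with DLL4. The 3 groups were separate, with falls of 1.02 ± 0.20 (limma adjusted p 0.00931) and 2.00. The Fn1 call was lost without BMDMctrDll4Dapt replicate 2 (adjusted p 0.0986) or BMDMctrNotx replicate 2 (0.123). Metalloproteases, which degrade matrix and are named here after their values were seen, did not move together. Mmp13, a collagenase, was at 33.1 and 33.0 TPM untreated and 20.4 and 22.96 TPM with DLL4 and DAPT, a difference of -0.59, beside 2.42 with DLL4, and Mmp12, the macrophage elastase, had -0.46 beside 0.81. Mmp14, a membrane-bound member, had 0.47 beside 3.12 and Mmp9, a gelatinase, 0.18 beside 1.69. The summed level of 14 stromal and fibroblast markers was 34.8 to 35.2 TPM untreated and 24.6 to 29.4 TPM with DLL4 and DAPT, with Lum at 0 in both groups. Of 5 tested markers of that list 0 passed limma's test (2 by unadjusted p, 1 by limma-voom), where 5.21% of all genes did. The part of such cells in these values was not tested, and in bulk RNA fewer cells of a type and less RNA per cell cannot be told apart.

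Another group of genes was low with DLL4 and DAPT but not, or much less so, with DLL4 alone. Il1rn, the interleukin 1 receptor antagonist (chr2:24345291-24351491), was at 25.2 and 27.9 TPM untreated, 24.2 and 25.0 TPM with DLL4, and 9.83 and 11.1 TPM with DLL4 and DAPT. Of these 6 libraries those with DAPT were the low ones. Il1rn fell by 1.26 ± 0.13 from untreated (limma adjusted p 6.88e-05) and by 1.16 from DLL4 (adjusted p 1.37e-05), while DLL4 alone differed from untreated by -0.10 ± 0.13 (adjusted p 0.526). Chst11, a chondroitin sulfotransferase that modifies proteoglycan chains (chr10:82985497-83195891), was at 6.29 and 6.26 TPM untreated, 8.81 and 8.35 TPM with DLL4, and 2.92 and 2.29 TPM with DLL4 and DAPT. Its libraries with DAPT were lowest and those with DLL4 highest. Chst11 fell by 1.02 ± 0.12 from untreated (adjusted p 0.000294) and by 1.42 from DLL4 (adjusted p 1.13e-06), and without BMDMctrDll4Dapt replicate 2 the first was -0.89, under the 2-fold minimum.

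Rgs1, a regulator that switches off G protein signalling, was at 51.7 and 50.7 TPM untreated, 39.1 and 38.8 TPM with DLL4, and 18.2 and 20.8 TPM with DLL4 and DAPT. The 3 groups were separate, with falls of 1.35 ± 0.14 from untreated (limma adjusted p 0.00012) and 0.97 from DLL4 (adjusted p 0.000235). Under 2-fold, and named after their values were seen, Egr2 and Tnfaip3 were also lowest with DAPT. Egr2, an early growth response transcription factor, was at 13.8 and 13.9 TPM untreated, 14.5 and 15.9 TPM with DLL4, and 7.15 and 7.55 TPM with DLL4 and DAPT (-0.83 ± 0.16 from untreated, adjusted p 0.00824). Tnfaip3, a brake on NF-kB signalling, was at 9.61 and 9.66 TPM untreated and 6.06 and 5.83 TPM with DLL4 and DAPT (-0.62 ± 0.14, adjusted p 0.0227), beside -0.07 with DLL4.

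**Figure D2:**
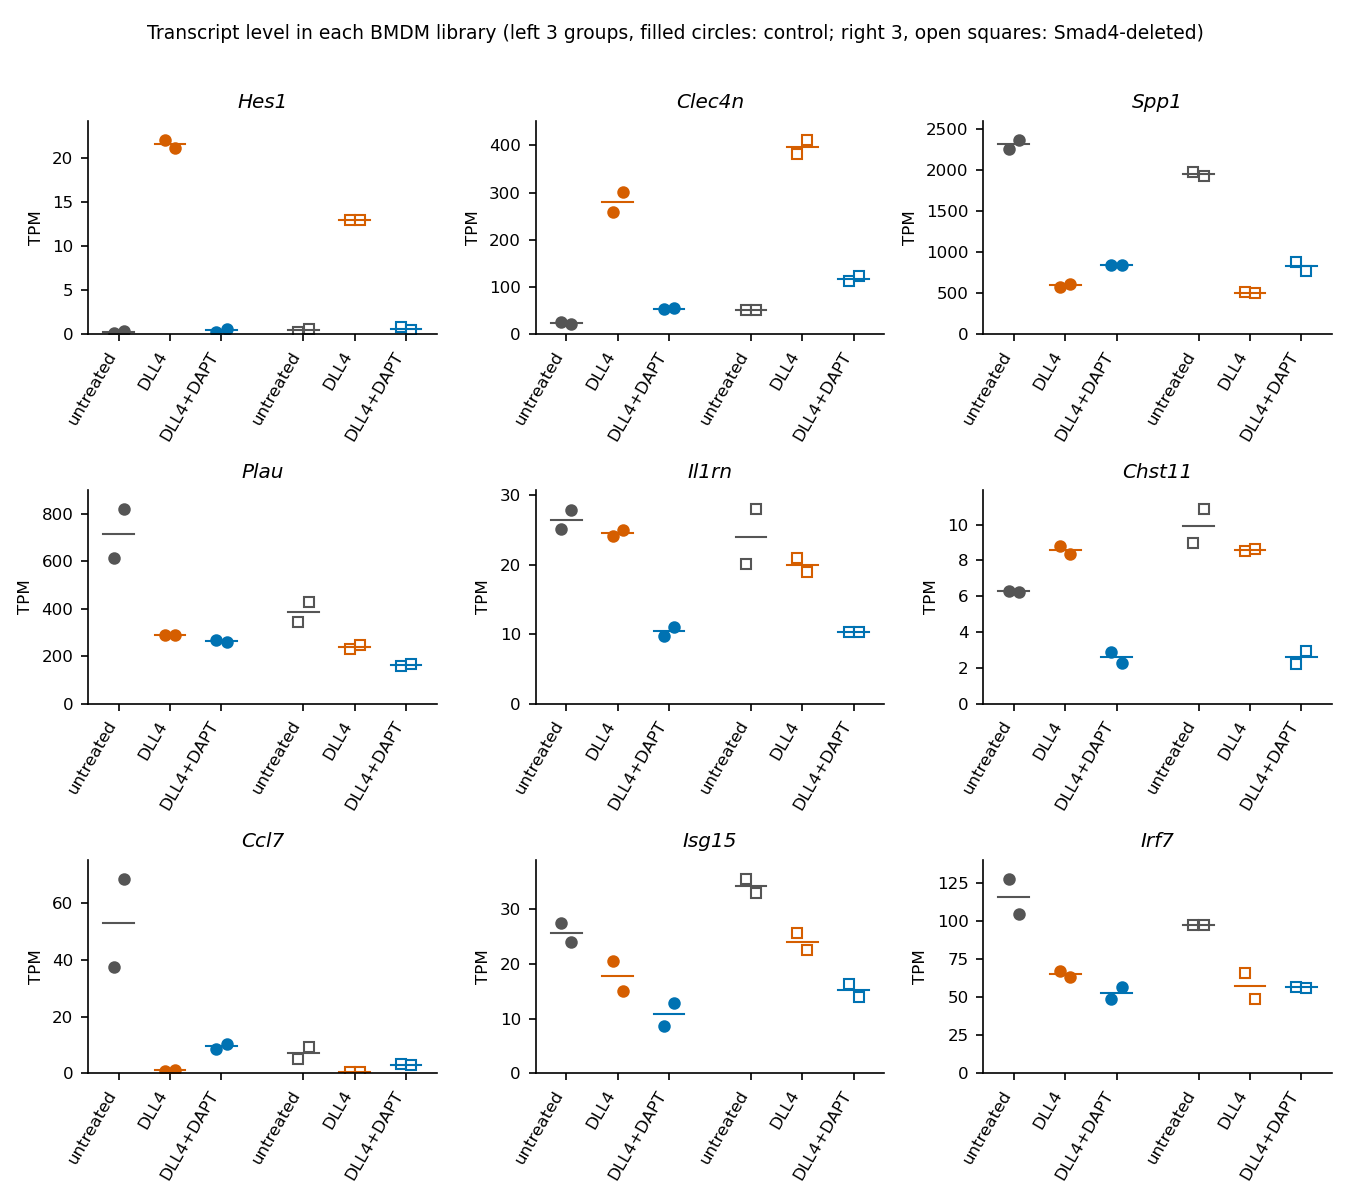
TPM of 9 genes in each library, with points for libraries and lines for the mean of 2. Filled circles are control BMDMs and open squares BMDMs labelled Smad4-deleted, each untreated, with DLL4 or with DLL4 and DAPT. In control cells Hes1 with DLL4 and DAPT sits under 1 TPM, as untreated, Clec4n between the other groups, Spp1 and Plau near the DLL4 level, and Il1rn and Chst11 below both.

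Several other genes called lower had a larger fall with DLL4 alone. Ccl7, a monocyte-attracting chemokine, was at 37.6 and 68.7 TPM untreated, 8.75 and 10.3 TPM with DLL4 and DAPT, and 0.985 and 1.07 TPM with DLL4. The groups were separate, but the untreated libraries differed widely. The fall of 2.30 ± 0.40 (limma adjusted p 0.00486, beside 4.68 with DLL4) lost its call without BMDMctrNotx replicate 2 (adjusted p 0.0818) and with the spread of the 10 control libraries alone (0.0529). Pcdh7, a protocadherin of the cell surface, was at 49.3 and 56.7 TPM against 21.3 and 20.1 TPM, a fall of 1.31 ± 0.16 (adjusted p 0.000326) beside 2.40 with DLL4. Flrt2, a leucine-rich repeat membrane protein, was at 12.9 and 12.8 TPM against 5.34 and 5.25 TPM, a fall of 1.13 ± 0.12 (adjusted p 0.00012) beside 2.29. For these 3 genes both libraries with DLL4 and DAPT lay between the untreated and the DLL4 libraries. Nptx1, a secreted pentraxin, fell by 1.56 ± 0.22 beside 2.26 with DLL4. Hmga2, a chromatin architectural protein, fell by 1.33 ± 0.25 beside 2.20. Its call was lost without BMDMctrDll4Dapt replicate 2 (at -1.41) or BMDMctrDll4Dapt replicate 1 (at -1.25). Hmga2 reached the minimum of 4 TPM only in the untreated pair, so it could be called only as a fall. Nes, which encodes the intermediate filament nestin, was at 9.55 and 12.6 TPM against 3.44 and 3.42 TPM (-1.44 ± 0.31, adjusted p 0.0174), and its call was lost without any 1 of the 4 libraries (adjusted p 0.0502 to 0.175).

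Plk2, Ly6a, Igf2bp2 and Tmem26 had close values with and without DAPT, as Plau did. Plk2, a polo-like kinase, was at 43.2 and 44.1 TPM untreated, 20.5 and 21.6 TPM with DLL4 and DAPT, and 21.1 and 21.3 TPM with DLL4. Both treated groups were low and overlapped each other. Plk2 fell by 1.02 ± 0.08 (limma adjusted p 8.64e-06), with -0.01 ± 0.08 between DLL4 with DAPT and DLL4 (adjusted p 0.931), and was at -0.98 without BMDMctrDll4Dapt replicate 1. Ly6a, the surface antigen Sca-1, was at 71.6 and 55.7 TPM untreated, 26.1 and 32.7 TPM with DLL4 and DAPT, and 27.9 and 25.6 TPM with DLL4. Its fall of 1.09 ± 0.16 (adjusted p 0.00153) was -0.93 without BMDMctrDll4Dapt replicate 1 and -0.91 without BMDMctrNotx replicate 1. Igf2bp2, an RNA-binding protein, was at 29.0 and 30.0 TPM against 14.0 and 12.4 TPM, a fall of 1.10 ± 0.11 (adjusted p 6.88e-05) beside 0.87 with DLL4. Tmem26, a membrane protein, was at 5.25 and 6.59 TPM against 1.86 and 1.46 TPM, a fall of 1.38 ± 0.15 beside 1.09. For both genes the untreated libraries were the higher ones. Tmem26 reached the minimum of 4 TPM only in the untreated pair, so it could be called only as a fall.

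Interferon-stimulated genes were lower with DLL4 and DAPT. Of 31 tested members of a 35-gene interferon response list 6 were called lower, where 0.234% of all genes were. By adjusted p alone 19 fell and 1 rose, where 1.82% of all genes fell. In all 29 of the 31 had a value below 0, and their median was -0.61, beside 0.03 over all genes tested. Isg15, a ubiquitin-like protein attached to other proteins (chr4:156199424-156200818), was at 27.4 and 24.0 TPM untreated, 20.6 and 15.1 TPM with DLL4, and 8.75 and 12.8 TPM with DLL4 and DAPT. The untreated libraries were the highest and those with DAPT the lowest, and Isg15 fell by 1.20 ± 0.23 (limma adjusted p 0.0085). Irf7, a transcription factor that amplifies type I interferon, was at 128 and 105 TPM untreated, 67.3 and 63.2 TPM with DLL4, and 48.7 and 56.99 TPM with DLL4 and DAPT (-1.12 ± 0.20, adjusted p 0.00602). Oasl2, of the oligoadenylate synthetase family, was at 80.4 and 72.6 TPM untreated, 43.1 and 37.7 TPM with DLL4, and 36.8 and 35.3 TPM with DLL4 and DAPT (-1.06 ± 0.18, adjusted p 0.00461). For both genes every treated library was below every untreated one. Ifit3 (-1.07), Usp18 (-1.04) and Oasl1 (-1.03) were the other calls. Gbp3, a guanylate-binding GTPase named after its values were seen, was the member that rose, by 0.48 ± 0.10 (adjusted p 0.0152), beside 2.16 with DLL4.

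How many interferon genes passed depended on the fit. Fewer passed when any 1 of the 4 libraries was left out. In those fits 1 group rests on 1 library, which widens standard errors in general. By adjusted p alone 12 fell with the spread of the 10 control libraries alone, 13 with no filter and 17 with a replicate block. By limma-voom 22 fell, and in a fit on the 4 libraries compared alone 24 did. The share of all genes that passed was not counted for most of these fits. The calls of Ifit3 and Oasl1 were lost without any 1 of the 4 libraries, that of Isg15 without any but BMDMctrDll4Dapt replicate 2, those of Oasl2 and Usp18 without BMDMctrDll4Dapt replicate 2 or BMDMctrNotx replicate 1, and that of Irf7 without BMDMctrDll4Dapt replicate 1 or BMDMctrNotx replicate 1. Over these losses the adjusted p ran from 0.0451, for Oasl2 at -0.99, to 0.194, for Ifit3. With DLL4 alone the list's median was -0.50, with 15 falls and 3 rises by adjusted p, where 24.4% of all genes fell and 20.6% rose (45.0% in all). In C57BL/6J BMDMs given DLL4 for 24 h, which share no library with these, 2 of 29 tested members fell and 8 rose by adjusted p, where 13.0% of all genes fell and 15.6% rose (28.6% in all), and their median was 0.27. Levels of these genes in the untreated C57BL/6J libraries were low, with Irf7 at 9.73 and 10.4 TPM and Oasl2 at 9.06 and 10.9 TPM, in a table that was normalized separately.

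Promoters were searched, after these falls were seen, for 8 motifs on both strands, among them the core of the interferon-stimulated response element, which is GAAA, any 2 bases, and GAAA again. The window ran from 250 bases before to 50 after the start in RefSeq's promoter table (GRCm38.p6, the assembly of mm10), which held 7922 of the 10267 tested genes. The core was present in 3.37% of these 7922, in 20 of 139 genes that fell by adjusted p (14.4%), in 8 of 264 that rose (3.03%), and in 8 of 13 interferon genes that fell and had an entry (61.5%). The 8 interferon genes are among the 20, and no share was counted for list members that did not fall. The core was also in 21 of 172 promoters of genes that DLL4 raised in C57BL/6J BMDMs (12.2%). Of 16 genes called lower with an entry 4 held it (25.0%), namely Isg15, Ifit3, Plk2 and Spp1. The RBPJ core, TGGGAA, was in 22.5% of all, in 5 of the 16 called lower and in 2 of 5 called higher. The AP-1 motif, TGANTCA with N for any base, was in 12.2% of the 139, 6.44% of the 264 and 4.92% of all. A match is a description and not a site shown to be bound. The promoters of Isg15, Ifit3 and Ifit1 are shown because these genes fell and hold 3 overlapping, 2 and 2 matches, in capitals, and that of Oasl2 because it fell to a like degree and holds 0. They lie at chr4:156200769-156201068 (minus strand), chr19:34583279-34583578 (plus), chr19:34640639-34640938 (plus) and chr5:114896684-114896983 (plus), each read 5′ to 3′ along the gene.
Isg15: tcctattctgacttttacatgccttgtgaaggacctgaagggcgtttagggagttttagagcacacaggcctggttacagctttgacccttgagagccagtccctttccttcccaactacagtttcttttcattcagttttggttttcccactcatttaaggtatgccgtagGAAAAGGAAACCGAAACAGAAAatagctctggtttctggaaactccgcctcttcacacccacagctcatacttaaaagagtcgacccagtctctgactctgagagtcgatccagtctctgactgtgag
Ifit3: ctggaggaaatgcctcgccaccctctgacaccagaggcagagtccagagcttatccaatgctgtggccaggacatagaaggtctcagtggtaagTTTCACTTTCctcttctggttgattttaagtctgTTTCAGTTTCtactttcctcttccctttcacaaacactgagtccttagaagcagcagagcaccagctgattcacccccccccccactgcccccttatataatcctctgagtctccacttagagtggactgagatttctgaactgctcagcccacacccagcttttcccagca
Ifit1: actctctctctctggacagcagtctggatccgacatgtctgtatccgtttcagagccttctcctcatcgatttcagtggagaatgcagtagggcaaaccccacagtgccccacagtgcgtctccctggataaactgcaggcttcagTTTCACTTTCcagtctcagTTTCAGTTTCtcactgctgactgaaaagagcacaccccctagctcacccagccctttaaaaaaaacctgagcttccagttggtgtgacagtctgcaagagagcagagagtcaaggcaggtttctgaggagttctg
Oasl2: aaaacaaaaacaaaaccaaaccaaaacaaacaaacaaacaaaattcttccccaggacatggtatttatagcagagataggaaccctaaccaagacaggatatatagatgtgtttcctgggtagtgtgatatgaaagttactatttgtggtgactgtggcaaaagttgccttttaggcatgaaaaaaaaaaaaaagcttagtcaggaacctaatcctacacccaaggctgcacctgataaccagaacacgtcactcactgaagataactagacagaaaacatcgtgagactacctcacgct
The matches of Isg15 read along the gene, and those of Ifit3 and Ifit1 are on the opposite strand. Ifit1, which encodes an interferon-induced RNA-binding protein and was named after its values were seen, was at 7.79 and 6.03 TPM untreated and 3.47 and 3.79 TPM with DLL4 and DAPT (-0.76 ± 0.19, limma adjusted p 0.0338). The 0 matches of Oasl2 say only that these letters are not in this window.

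**Figure D3:**
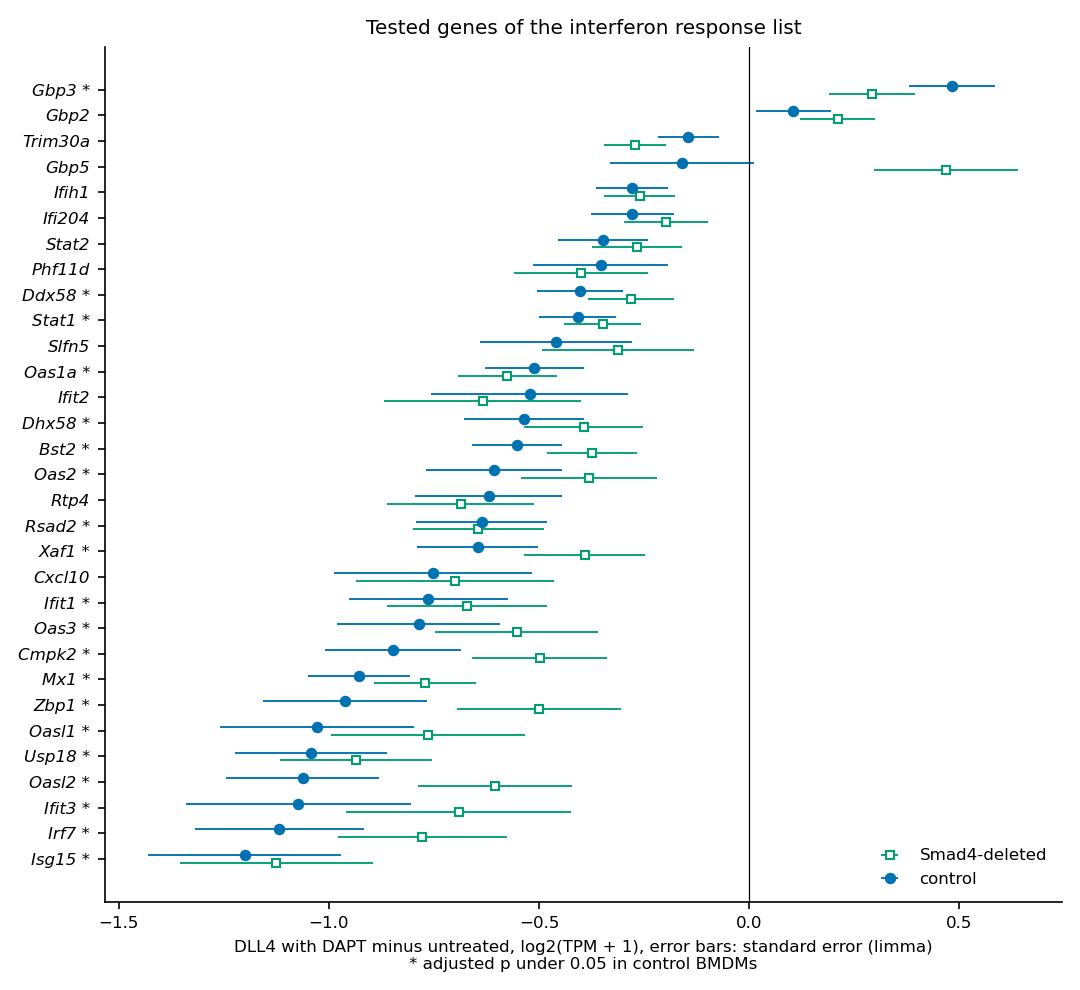
DLL4 with DAPT minus untreated in log2(TPM + 1) for the 31 tested genes of the interferon response list, with limma standard errors. Filled circles are control BMDMs, open squares BMDMs labelled Smad4-deleted, and asterisks mark adjusted p under 0.05 in control cells. In control cells 29 of the 31 values are below 0, and in the other genotype 28.

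Among the parts of the Notch pathway itself Jag1 and Numb fell and Rfng rose. Of 20 tested receptors, ligands and partners these were the 1 rise and 2 falls by adjusted p, where 3.39% of all genes rose and 1.82% fell, and none reached the 2-fold minimum (0 calls; 7 by unadjusted p, and 1 higher and 2 lower by limma-voom adjusted p). Jag1, a Notch ligand (chr2:137081451-137116520), was at 22.2 and 25.7 TPM untreated, 12.7 and 11.1 TPM with DLL4 and DAPT, and 6.85 and 6.86 TPM with DLL4. The 3 groups were separate with DLL4 and DAPT between the others, and Jag1 fell by 0.95 ± 0.10 (limma adjusted p 0.00012) beside 1.66 with DLL4. Numb, an inhibitor of Notch signalling, fell by 0.32 ± 0.06 (adjusted p 0.00843), and Rfng, a fringe glycosyltransferase that modifies Notch, rose by 0.34 ± 0.08 (adjusted p 0.0263). The receptor gene Notch1 was at 12.5 and 13.1 TPM untreated, 17.2 and 15.3 TPM with DLL4 and DAPT, and 26.1 and 25.3 TPM with DLL4. Its groups were separate, but the difference of 0.32 ± 0.11 did not pass (adjusted p 0.108). The receptor gene Notch2 was at 33.9 and 33.9 TPM against 39.5 and 34.9 TPM (0.13 ± 0.08, adjusted p 0.385).

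Of 18 tested gamma-secretase and sheddase genes 2 rose and 0 fell by adjusted p, where 3.39% of all genes rose and 1.82% fell, with a median of 0.07. Furin, the convertase that cuts Notch receptors during their maturation, rose by 0.41 ± 0.06 (36.7 and 36.0 TPM against 48.4 and 49.2 TPM, limma adjusted p 0.00103), and Aph1b, a gamma-secretase subunit, by 0.42 ± 0.11 (adjusted p 0.0387). The subunit gene Psen2 was at 52.0 and 46.0 TPM against 47.1 and 45.3 TPM (-0.08 ± 0.07). It did not pass, nor did the subunit gene Ncstn (-0.03) or the sheddase genes Adam10 (0.07) and Adam17 (-0.06). Among 28 tested genes of gamma-secretase substrates 4 rose and 1 fell against the same shares, and Cxcl16, a transmembrane chemokine, had the largest of these values, at 87.6 and 83.7 TPM against 129 and 130 TPM (0.59 ± 0.06, adjusted p 6.88e-05, beside 1.27 with DLL4).

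MHC class II genes, which present antigen to T cells, and some Kupffer genes rose by less than 2-fold, beside larger values with DLL4 alone. The examples in this and the next paragraph, from lists with few calls, were chosen after their values were seen. Of 10 MHC class II genes 6 rose and 0 fell by adjusted p, where 3.39% of all genes rose and 1.82% fell, with a median of 0.33 beside 1.80 with DLL4. Cd74, the invariant chain, was at 532 and 534 TPM untreated, 679 and 678 TPM with DLL4 and DAPT, and 1498 and 1511 TPM with DLL4. Ciita, the master transactivator of MHC class II, was at 2.30 and 2.16 TPM, 3.82 and 3.77 TPM and 28.5 and 27.7 TPM in the same order. For both genes DLL4 with DAPT stood a little above untreated and far below DLL4, at 0.35 ± 0.05 (limma adjusted p 0.00241) and 0.57 ± 0.08 (adjusted p 0.00139) from untreated. Of 15 tested MHC class I genes 0 rose and 1 fell, H2-T23, with a median of -0.15 beside 0.15 with DLL4, and 10 of the 15 values were below 0. Of 18 tested Kupffer identity genes 6 rose and 1 fell by adjusted p against the same shares of all genes, and 6 of the 18 values were below 0, with a median of 0.17 beside 1.43 with DLL4. Slc40a1, the iron exporter ferroportin, was at 163.7 and 142 TPM untreated, 280 and 290 TPM with DLL4 and DAPT, and 823 and 817 TPM with DLL4 (0.90 ± 0.10, adjusted p 0.00012). Marco, a scavenger receptor, rose by 0.92 ± 0.13 and Nr1h3, which encodes the nuclear receptor LXR alpha, by 0.61 ± 0.15. Folr2, a folate receptor, was the one that fell, from 798 and 745 TPM to 494 and 520 TPM (-0.61 ± 0.05, adjusted p 8.64e-06), beside -0.87 with DLL4. Clec4f, a Kupffer cell lectin, was at 0.322 and 0.278 TPM untreated and 0.520 and 0.195 TPM with DLL4 and DAPT, groups that overlapped.

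Of 13 tested complement genes 3 rose and 0 fell by adjusted p, where 3.39% of all genes rose and 1.82% fell, and 7 of the 13 values were below 0. The 3 were those of C1q, which starts the classical pathway, and they rose by 0.37 ± 0.05 (C1qa), 0.29 ± 0.05 (C1qb) and 0.36 ± 0.05 (C1qc). Of 16 Nrf2 and oxidative stress genes 5 rose and 1 fell against the same shares. Gsta3, a glutathione transferase, was at 15.2 and 13.4 TPM against 28.9 and 26.2 TPM (0.90 ± 0.08), and Hmox1, heme oxygenase 1, was the one that fell, at 838 and 864 TPM against 621 and 596 TPM (-0.48 ± 0.11). Of 16 lipid-associated macrophage genes 5 fell and 0 rose, again beside 1.82% and 3.39% of all genes, among them Spp1 and Lpl, lipoprotein lipase, which fell by 0.55 ± 0.11. Of 27 cell cycle genes 0 passed limma's test (6 by unadjusted p, 1 by limma-voom), with a median of 0.06 beside -0.51 with DLL4, where all 27 fell by adjusted p and 24.4% of all genes did. The lists of ATF4 and ER stress (21 tested), heat shock (10) and hypoxia and glycolysis (21) also had 0 past the limma threshold. Over all genes 5.21% passed, so 0 in lists this small is near that share. By unadjusted p 10, 3 and 7 passed, and by limma-voom 1, 0 and 1. Of their values 15, 8 and 16 were below 0, with medians of -0.15, -0.12 and -0.16 beside 0.03 over all genes.

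With DLL4 and DAPT, genes that DLL4 raised in separate C57BL/6J BMDMs, also cultured for 4 days, were mostly a little above untreated and below DLL4 alone. In those cells DLL4 for 24 h raised 242 genes and lowered 58 by the same thresholds (300 of 10908 tested, 2.75%, with 2.22% raised and 0.532% lowered). The untreated C57BL/6J pair stood apart, with a chi-square of 22.9 per degree of freedom, and 289 or 327 genes were called without one or the other of them. Of the raised genes 228 were tested here, and with DLL4 and DAPT 202 of them had a value above 0, where 5788 of all 10267 genes did. By limma adjusted p 86 rose, where 3.39% of all genes did, and 6 were called higher, where 0.0779% of all were. The median of the 228 was 0.36 with DLL4 and DAPT, 1.50 with DLL4 alone, and -1.15 between DLL4 with DAPT and DLL4. Of the lowered genes 51 were tested, of which 43 were below 0 (4479 of all 10267), 17 fell by adjusted p (1.82% of all) and 6 were called lower (0.234% of all), with medians of -0.33, -1.27 and 0.73 in the same order. Without BMDMctrNotx replicate 1 the 6 raised genes called became 10, and without BMDMctrNotx replicate 2 the 6 lowered ones became 3.

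Read the other way, 6 of the 8 higher calls were DLL4 calls in C57BL/6J cells in the same direction (2.26% of all genes tested in both tables), as were 6 of 23 tested lower calls (0.505%). The higher ones were Abcg3, Clec4n, Ifitm1, Il1b, Ms4a7 and P2ry13, which are 2.48% of the 242, and the lower ones Ccl7, Flrt2, Hmga2, Nes, Pcdh7 and Spp1, which are 10.3% of the 58. Plau was not among them: in C57BL/6J cells it was at 256 and 269 TPM untreated and 276 and 322 TPM with DLL4 (0.18 ± 0.09, limma adjusted p 0.148). Il1rn was at 8.23 and 5.73 TPM untreated and 11.5 and 13.3 TPM with DLL4, a rise of 0.76 ± 0.14 (adjusted p 0.000944).

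**Figure D4:**
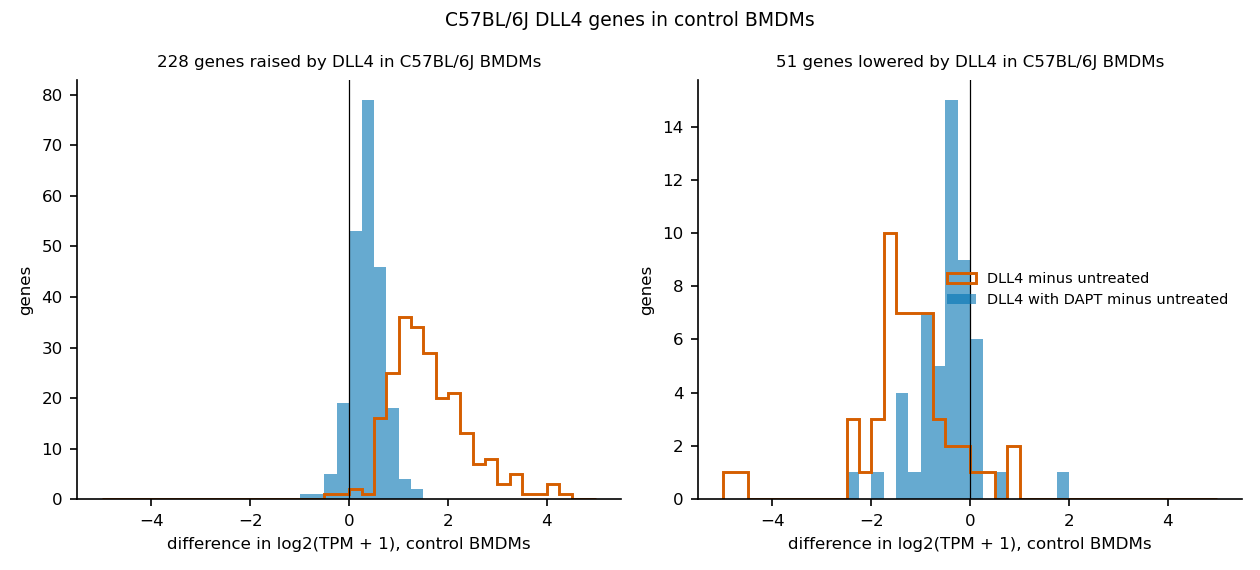
Histograms of the difference in log2(TPM + 1) in control BMDMs for the 228 genes raised (left) and 51 genes lowered (right) by DLL4 in C57BL/6J BMDMs. Filled bars are DLL4 with DAPT minus untreated, outlines DLL4 minus untreated. The filled bars have medians of 0.36 and -0.33, the outlines 1.50 and -1.27.

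The same treatment in BMDMs labelled Smad4-deleted gave a second measure with no shared library. These cells carried Smad4 flox/flox with a Cre, labelled Clec4f-cre +/- on the samples while the series text names LysM-cre for BMDMs. Smad4 was at 9.90 to 11.3 TPM in the 6 libraries labelled as deleted (untreated, DLL4, or DLL4 with DAPT) and at 20.8 to 26.5 TPM in the 6 corresponding control libraries. TPM over a whole transcript does not show which exons were lost. DLL4 with DAPT against untreated gave 17 calls there (3 higher, 0.0292%, and 14 lower, 0.136%, or 0.166% in all), and 10 without BMDMsmad4KODll4Dapt replicate 1 (1 higher, 9 lower) or without BMDMsmad4KONotx replicate 2 (4 higher, 6 lower). Of the 17, 14 were called in the same direction in control cells, which is 43.8% of the 32 and 82.4% of the 17. All 24 genes called lower in control cells had a value below 0 in the Smad4-deleted cells (47.2% of all genes), and 7 of the 8 called higher were above 0 (52.7% of all genes), the exception being Mir1943.

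Called in both were Clec4n and Il1b, higher, and Chst11, Fn1, Igf2bp2, Il1rn, Isg15, Nes, Nptx1, Pcdh7, Plau, Rgs1, Spp1 and Tmem26, lower. In the Smad4-deleted cells Il1rn was at 20.1 and 28.0 TPM untreated, 21.0 and 19.0 TPM with DLL4, and 10.3 and 10.3 TPM with DLL4 and DAPT (-1.13 ± 0.13 from untreated, limma adjusted p 0.000259). Chst11 was at 8.99 and 10.8 TPM untreated, 8.52 and 8.65 TPM with DLL4, and 2.24 and 2.95 TPM with DLL4 and DAPT (-1.61 ± 0.12, adjusted p 8.4e-06). The libraries with DAPT were again the low ones for both genes. Spp1 fell by 1.24 ± 0.09 and Plau by 1.22 ± 0.22, and the interferon list had a median of -0.50, with 28 of 31 values below 0 and 5 falls by adjusted p, where 1.18% of all genes fell and 1.03% rose (2.21% in all). By limma's interaction test 0 of 10267 genes differed between the genotypes in this response at an adjusted p under 0.05 (lowest 0.111; 605 by unadjusted p; 0 by limma-voom). With 2 libraries a group this does not show that the responses were alike.

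**Figure D5:**
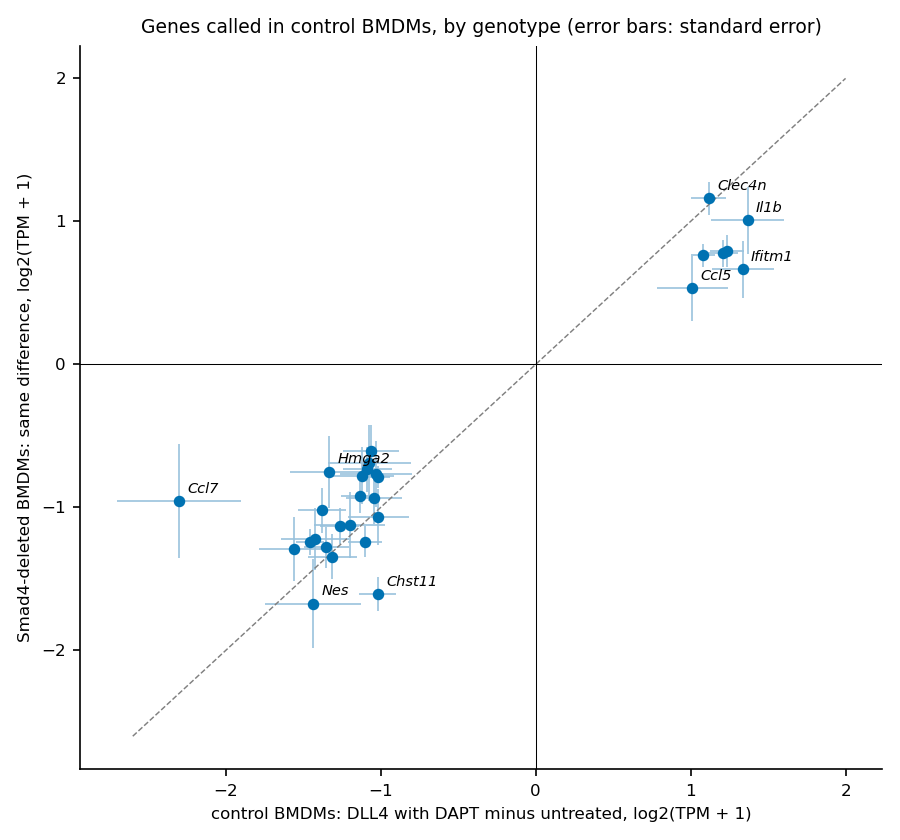
DLL4 with DAPT minus untreated in log2(TPM + 1) in control BMDMs (horizontal) and BMDMs labelled Smad4-deleted (vertical) for the 29 genes called in control cells that are not small RNAs or clone names. Bars are limma standard errors and the dashed line marks equal values. Ccl7 lies farthest from the line, at -2.30 and -0.95, and Chst11 lies below it, at -1.02 and -1.61.

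Another gamma-secretase inhibitor, LY411575, had been given in vivo to C57BL/6J mice whose liver macrophages were repopulating 24 h after diphtheria toxin. There 3 libraries titled as treated and 2 titled as controls were compared. All 5 carry LY411575 in a label field, but the titles and the data headers both mark 2 as Ctrl and 3 as LY411575. The groups follow these, and the headers of all 5 also read Female and Fasted. By the same thresholds 631 of 9885 genes were called (6.38%, with 3.73% higher and 2.65% lower). Cells, agent and setting differ from the BMDM comparison, so the values stand side by side. Of the 8 genes higher with DLL4 and DAPT 0 were called higher there and 2 were called lower, Il1b and P2ry13 (2.39% of all genes tested in both tables were called lower). Of 18 tested genes lower with DLL4 and DAPT 0 were called lower and 8 were called higher (3.22%). These 8 were Spp1, Il1rn, Fn1, Ccl7, Flrt2, Igf2bp2, Plk2 and A230028O05Rik. Spp1 was at 122 and 124 TPM in the controls and 1227, 1191 and 1346 TPM with LY411575, and Il1rn at 10.7 and 10.2 TPM against 66.8, 74.3 and 74.9 TPM. So Il1rn, low with DAPT in the BMDMs, was high with LY411575 in the liver cells.

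Core macrophage markers were present throughout. All 19 were at 1 TPM or more in both groups, with a summed level of 26056 to 26931 TPM untreated and 26821 to 26893 TPM with DLL4 and DAPT. Monocyte markers summed to 3940 to 3946 TPM untreated and 3451 to 3589 TPM with DLL4 and DAPT. Neutrophil markers summed to 5304 to 5520 TPM and 5625 to 6315 TPM, with S100a9 the highest. Of 15 tested 0 passed limma's test (3 by unadjusted p, 1 by limma-voom), where 5.21% of all genes did. Yet 14 of the 15 values were above 0, with a median of 0.16 beside 0.03 over all genes and 0.42 with DLL4. In the Smad4-deleted cells all 15 were above 0. Lymphocyte markers summed to 13.0 to 14.7 TPM and 16.6 to 20.6 TPM, where Cd79b, a B cell receptor chain, rose by 0.54 ± 0.12. Dendritic cell markers summed to 62.4 to 65.4 TPM and 58.3 to 61.1 TPM, and endothelial markers to 54.5 to 58.0 TPM and 51.5 to 53.6 TPM with Cldn5 at 0. Mast cell and basophil markers summed to 14.0 to 14.7 TPM and 14.8 to 18.9 TPM with Cma1 and Tpsb2 at 0. The erythroid sum, 88.7 to 93.1 TPM and 84.3 to 87.3 TPM, was nearly all Tfrc, with Hbb-bs and Hbb-bt at 0. The part of these cell types in the differences above was not tested.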

How the data were processed

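Poly(A) RNA of 20 BMDM libraries in 10 groups of 2 was used, of which 4 are compared here. The values are TPM per gene, which the authors deposited. Per the submitters' processing notes STAR, HOMER and mm10 were used, with no role stated for each. Low TPM values were whole multiples of 1 read for at least 99.97% of values in each library of this table (within 0.1 read, up to 20 reads), so reads were recovered, at 8378142 to 18250400 a library. A lower depth leaves more error in genes of few reads.

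Genes with at least 4 TPM in 2 libraries were tested with limma 3.58.1 (R 4.3.3) on log2(TPM + 1), with an intensity trend, 1 mean per group and 1 spread over all 20 libraries. P-values were adjusted by Benjamini-Hochberg over all genes tested. On this scale the change of low genes is understated. The C57BL/6J and LY411575 tables were normalized and fitted separately. The test was checked on simulated counts that gave all genes and groups the same spread. The real groups differed in spread, and that check does not cover such differences.

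The genes, lists and comparisons were chosen with earlier results of these data known. The rule for named genes took up to 15 called genes per direction whose groups did not overlap and whose higher group averaged 10 TPM or more, the tested members of the Notch and gamma-secretase lists, up to 6 called members of other lists and 8 genes called in both genotypes. Some results under this rule are not reported here. Abcg3, Ifitm1, Chst11, Hmga2 and Tmem26 are calls outside that rule, named after their values were seen. Promoter sequences come from RefSeq.

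Alternatives were a pseudocount of 0.25, no filter, quantile normalization, a replicate block, limma-voom on recovered reads, other sets of libraries for the spread, no 2-fold minimum, and leaving out each library.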

Additional observations from a re-analysis of the deposited data

How the results depend on the processing

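The 32 calls became 535 by adjusted p alone and 20 to 31 when 1 of the 4 libraries was left out, lowest without BMDMctrNotx replicate 2. Other settings gave 27 (spread of the 10 control libraries alone) to 45 (the 4 libraries alone), with 42 at a pseudocount of 0.25 and 43 by limma-voom. In all 12 alternatives 11 genes stayed called, 3 higher (Abcg3, Ifitm1, P2ry13) and 8 lower (Flrt2, Igf2bp2, Il1rn, Nptx1, Pcdh7, Plau, Rgs1, Spp1). Of these, Abcg3 and Ifitm1 were under 4 TPM in both untreated libraries. The 17 calls in Smad4-deleted cells became 10 to 19 when a library was left out. The 19 interferon falls became fewer when a library was left out, 12 with the spread of the 10 control libraries and 13 with no filter. In the other settings they were 17 to 24. The 6 raised C57BL/6J genes called higher became 10 at a pseudocount of 0.25 and by limma-voom, 4 to 10 when a library was left out, and 86 by adjusted p alone. The 6 lowered ones became 3 with the spread of the 10 control libraries, 3 to 6 when a library was left out, and 17 by adjusted p alone. The cause of these shifts was not tested. No result changed its direction in the alternatives run. The fit without the TGF-beta pair (37 calls) was added after seeing the data.

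With the replicate number as a block 31 genes were called. The labels do not say if the numbers pair the samples. Deviations of same-numbered untreated and DLL4 with DAPT libraries correlated at -0.04, and at -0.26 to 0.18 over 45 pairs of groups. These values show no pairing, but a small pairing effect could go unseen in them. A call lost under the block is not read as a weaker effect. With 2 libraries a group, a small difference or one in a gene of few reads could be missed.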
